A study of Drosophila erecta with 23 samples.

Results

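In *Drosophila erecta* embryos, 1458 of 22632 transcription start site clusters (TSCs) had no annotated gene assigned to them, reached at least 5 RPM (reads scaled to a common library total) at some time point other than 7-8 h, and lay more than 5000 bp from the edge of every gene-assigned TSC on either strand of their scaffold. A TSC is a run of neighbouring transcription start sites that is taken as a promoter. Of 9303 TSCs without a gene, 3614 reached the minimum of 5 RPM, and 2156 of these lay within 5000 bp of a gene-assigned TSC. A further 1908 gene-less TSCs lay beyond 5000 bp but below the minimum. The distant TSCs are called far TSCs here. They were chosen by measured values, namely their highest RPM and their position. The 2156 others are called near TSCs, and both are set against the 10372 gene-assigned TSCs with the same minimum.

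The data came from RAMPAGE, which sequences cDNAs that extend to the capped 5′ end of an RNA, and so both maps start sites and measures the RNA that begins at each. Whole wild-type embryos of the reference genome strain were staged by the hour since egg laying, as 23 time points of 1 sample each, the first of them 0-1 h and the last 22-23 h. No time point had a replicate, so the scatter of time points around a smooth curve served as the error, and intervals of single values are 95% Wilson intervals that cover counting error only. The assay reads the RNA present, maternally loaded and embryonic RNA were not separated, and in whole embryos fewer cells of a type cannot be told apart from less RNA per cell.

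A promoter is the stretch of DNA at which RNA polymerase starts, and the RNA that leaves it takes a cap at its 5′ end almost at once. In flies, start sites away from annotated genes are known to include promoters of long noncoding RNAs, of transposable elements and of distant first exons that an annotation has missed. Long noncoding RNAs are known as a class for expression limited to few tissues or stages. The far TSCs carry no annotation beyond their position, and which of these kinds each belongs to was not tested.

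The median library held 3402363 reads in TSCs, the smallest (7-8 h) 142224 and the deepest (0-1 h) 13882184. The 7-8 h library stood apart, since 1 read there is worth 7.03 RPM. The next smallest held 1043634 reads (12-13 h). At 0-1 h a count of 0 allows up to 0.216 RPM, and at 12-13 h up to 2.87 RPM.

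Far TSCs were spread over 48 scaffolds of the FlyBase release 1.3 assembly and divided evenly by strand, with 728 on the plus and 730 on the minus strand. The 5 scaffolds with most of them were 4929 with 313, 4784 with 294, 4845 with 251, 4770 with 216 and 4690 with 198. Their share among gene-less TSCs of at least 5 RPM was 47.1% on scaffold 4929, against 28.0% on scaffold 4820. A gene-assigned TSC was present on the scaffold of 1394 far TSCs, and the other 64 lay on 39 scaffolds that carried none. Of those 64, 24 lay on a single scaffold of at least 15334 bp, scaffold 1390, which is treated apart below because it held 8.46% of the reads of all far TSCs.

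Where a gene-assigned TSC was present, it lay at a median distance of 14159 bp (quartiles 8279 and 29841 bp). Distances of 5 to 10 kb were found for 467 far TSCs, 10 to 20 kb for 411, 20 to 50 kb for 341, and more than 50 kb for 175. The nearest gene-assigned TSC was on the same strand and upstream for 449, on the same strand and downstream for 352, on the opposite strand and upstream for 310, and on the opposite strand and downstream for 283. Each of the 4 arrangements thus held between 20.3% and 32.2% of the 1394. The most distant was RAMPAGEpeak_010425, on the minus strand of scaffold 4784 (25725876 to 25726107), 782619 bp from the nearest gene-assigned TSC and itself the last TSC of that scaffold. Its RPM was lowest at 20-21 h (50.1), had a median of 137 outside 7-8 h, and was highest at 16-17 h (189, interval 180.2 to 199), a 3.78-fold range.

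Both limits of the definition cut through a continuum of values. Just inside the minimum, 4 far TSCs shared a highest value of 5.01 RPM, which rested on 10 reads at 20-21 h. Just outside it, RAMPAGEpeak_004905 and RAMPAGEpeak_015266 had 17 reads at 10-11 h, a value that rounds to 5.00 RPM, and RAMPAGEpeak_020020 had 4.97 RPM at 0-1 h. Just past the distance limit lay TSCs at 5002, 5026 and 5028 bp, and just within it TSCs at 4998, 4996 and 4995 bp. The excluded TSC at 4996 bp, RAMPAGEpeak_019010, was stronger at its highest hour, 22-23 h, than any far TSC but those of the 4 highest, with 3819 RPM, so the limit of distance sets aside strong promoters as well as weak ones.

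A few promoters held most of the RNA. Far TSCs together held 3.82% of the library at 21-22 h, a median of 7.48%, and 10.2% at 13-14 h. A single one, RAMPAGEpeak_013660, held 50.4% of their 6720643 reads and 30.5% of the reads of all gene-less TSCs of the series. The 24 on scaffold 1390 held between 0.0821% (21-22 h) and 2.31% (7-8 h) of a library. The remaining 1433, which held 41.2% of the reads, followed a course of their own, with 1.57% of the library at 0-1 h and 2.03% at 6-7 h. They stood at 4.20% and 4.13% at 14-15 h and 16-17 h, and ended with 2.22% at 22-23 h.

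**Figure D1:**
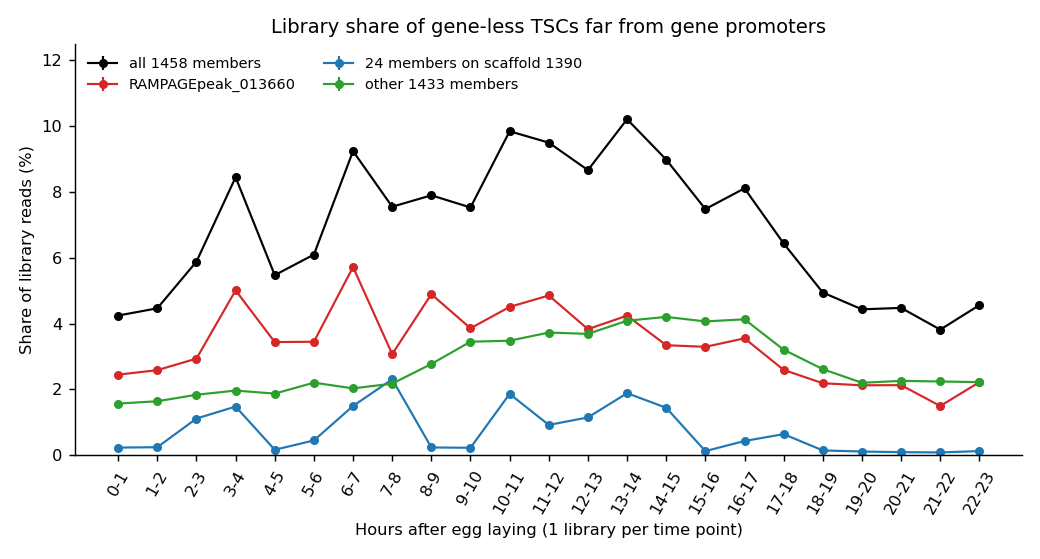
Share of each library's reads in TSCs (%, vertical axis) against hours after egg laying, for all 1458 far TSCs, for RAMPAGEpeak_013660, for the 24 TSCs on scaffold 1390 and for the remaining 1433; points are single libraries and bars, mostly smaller than the points, 95% Wilson intervals. The jagged course of the total comes from the red and blue lines, while the remaining 1433 (green) had a broad maximum of 4.20% at 14-15 h.

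By level, 534 far TSCs had a highest value of 5 to 10 RPM, 755 of 10 to 100 RPM, 154 of 100 to 1000 RPM and 15 of 1000 RPM or more. The 15 strongest held 69.1% of the reads and the 534 weakest 1.09%. The median highest value was 14.6 RPM for far TSCs, 11.2 RPM for near TSCs and 44.1 RPM for gene-assigned TSCs. These levels entered the choice of members and are given as a description. The highest value rested on fewer than 10 reads for 160 far TSCs (11.0%), for 12.8% of near and for 2.96% of gene-assigned TSCs, and the timing of those 160 is correspondingly loose.

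Far TSCs were narrow. Their median width was 35 bp (quartiles 19 and 87 bp), against 49.5 bp for near and 93 bp for gene-assigned TSCs. Width moved with depth, from a median of 16 bp for far TSCs under 100 reads to 159 bp for those with 10000 reads or more. Under 100 reads the medians were 16 bp for far, 15 bp for near and 18 bp for gene-assigned TSCs, and between 100 and 300 reads 28, 38 and 53 bp. Between 300 and 1000 reads they were 35 bp for 396 far, 75 bp for 545 near and 74 bp for 2516 gene-assigned TSCs. Between 1000 and 10000 reads they were 69, 101 and 97 bp, and at 10000 reads or more 159, 137 and 132 bp. The median of far TSCs was thus the lowest from 100 to 10000 reads, between the others below that, and the highest in the deepest range, which held 59 of them. TSCs are not replicates, and none of these differences was tested.

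The number of time points at 5 RPM or above differed between the sets, beside their unequal levels. Far TSCs reached 5 RPM at a median of 6 of the 22 time points outside 7-8 h, near TSCs at 4 and gene-assigned TSCs at 16. Only 74 far TSCs (5.08%) were at 5 RPM or above at all 22, against 5.84% of near and 30.2% of gene-assigned TSCs. At a single one, 277 (19.0%) reached 5 RPM, against 25.8% of near and 4.86% of gene-assigned TSCs. The same 5 RPM chose the members, and the sets differ in level, so nothing is read from these counts. Shannon entropy, which grows as a profile is spread more evenly over the time points, had a median of 3.56 bits for far, 3.54 bits for near and 4.10 bits for gene-assigned TSCs. With TSCs thinned to 100 reads each, the medians were 3.24 bits for 1249 far, 3.32 bits for 1735 near and 3.49 bits for 10223 gene-assigned TSCs. That entropy was taken on reads not scaled to RPM, so deep libraries weigh more in it, and it is not the same measure. With libraries thinned to the smallest outside 7-8 h and rescaled, the medians were 3.44, 3.39 and 4.01 bits. Far TSCs were below near TSCs only with 100 unscaled reads per TSC, while both stayed below gene-assigned TSCs in each setting.

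**Figure D2:**
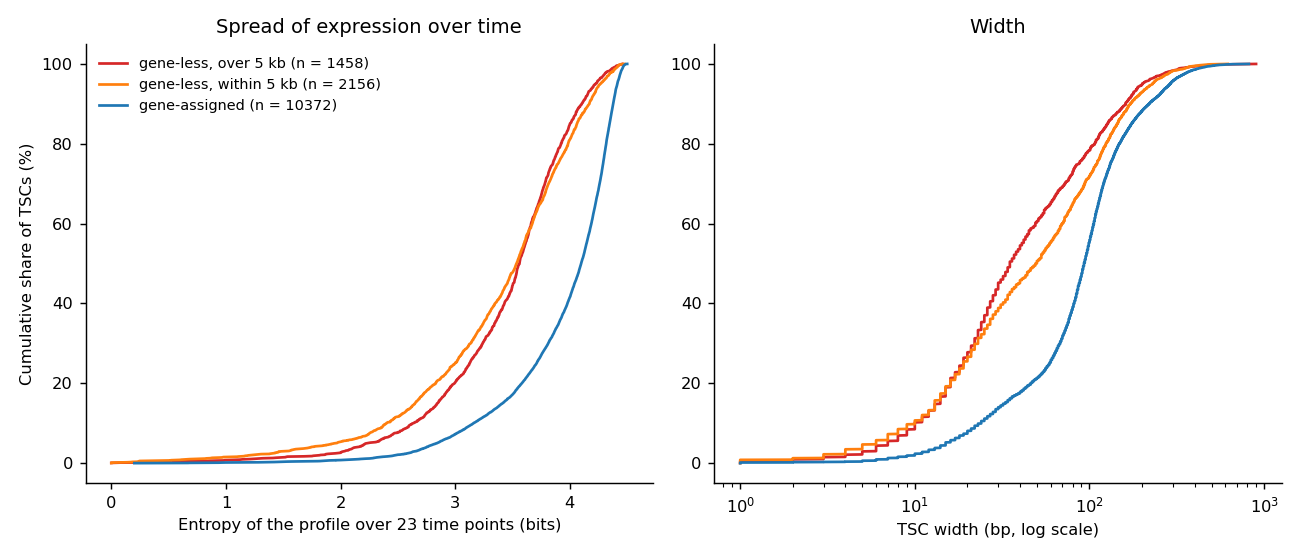
Cumulative share of TSCs (%, vertical axes) by the entropy of their profile over 23 time points (bits, left) and by their width (bp on a log axis, right), for far (n = 1458), near (n = 2156) and gene-assigned (n = 10372) TSCs. The curves of both gene-less sets lie to the left of the gene-assigned curve, with median widths of 35, 49.5 and 93 bp.

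Change over time was examined with limma on log2(RPM + 1), as a spline fitted to all TSCs of the series, with a Benjamini-Hochberg adjusted p under 0.05. Of 1458 far TSCs, 71 had too few reads to be tested, and 1332 of the other 1387 (96.0%) were called. The background was high, since percent called was 87.4 over all 14966 TSCs tested. Among near TSCs 89.8% were called and among gene-assigned TSCs 87.8%. The quasi-likelihood test of edgeR called 1318 far TSCs against 78.7 percent of all TSCs, and 1288 were called by both tools. Since the minimum was applied to the highest time point, a TSC that varies is more easily a member, and these counts are a description of the members. For called far TSCs the fitted curve spanned a median of 3.27 on the log2(RPM + 1) scale, beside a median residual SD of 0.68.

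By direction, most called far TSCs were higher at the end of the series. Of the 1387 tested, 943 (68.0%) were called with a fitted value that ended above where it began, while 33.8 percent of all TSCs tested were so called. Called with a value that ended lower were 389 (28.0%), against 53.6 percent of all. As a share of called TSCs, the higher ones made up 70.8% of far, 57.5% of near and 28.9% of gene-assigned TSCs. Scaling by TMM factors moved all log2 values of a library by between -0.44 (7-8 h) and 0.69 (18-19 h), and the share was then 74.7% for far TSCs and 45.9% for all called TSCs.

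Counted by the RNA present, maternal or embryonic, the series began with 132 far TSCs at 5 RPM or above at 0-1 h. The same 5 RPM chose the members, and such counts were not made for the other sets, so they are a description. There were 420 at 4-5 h, 457 by 9-10 h and 624 by 12-13 h. The number was 778 in both the 14-15 h and the 16-17 h library, followed by 625 at 22-23 h. With all libraries but 7-8 h thinned to the smallest, the numbers were 138, 396, 461, 624, 737, 741 and 594, so the course was much the same at equal depth. The median RPM of far TSCs was 0.144 at 0-1 h, 5.61 at 16-17 h and 3.34 at 22-23 h.

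The hour of the highest RPM outside 7-8 h was seldom among the first. It was 0-1 h or 1-2 h for 17 and 8 of 1458 far TSCs and for 74 and 33 of 2156 near TSCs. Of 10372 gene-assigned TSCs, 1724 and 601 were highest at these hours. The most frequent hours were 14-15 h with 181, 22-23 h with 148, 16-17 h with 122 and 12-13 h with 114. Of these, 14-15 h, 22-23 h and 12-13 h are among the 4 smallest libraries outside 7-8 h, in which counting error is largest, and the neighbouring deep libraries at 13-14 h and 15-16 h were highest for 81 and 38. The part of depth in the exact hour was not tested.

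**Figure D3:**
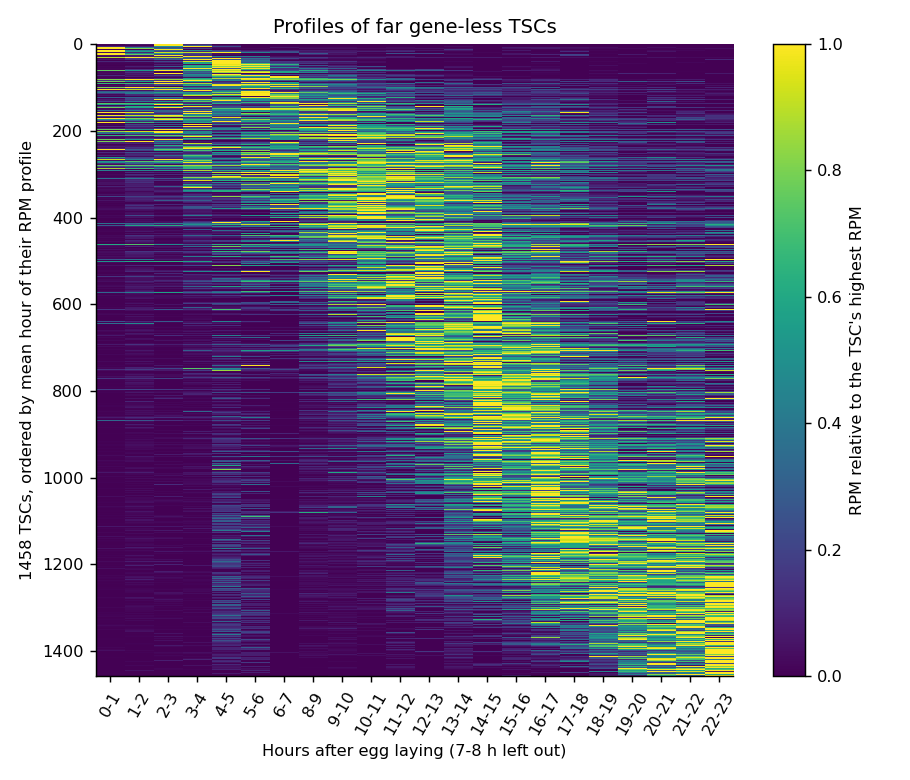
RPM of the 1458 far TSCs (vertical axis, ordered by the mean hour of their profile) at the 22 time points outside 7-8 h, each TSC relative to its own highest RPM (colour, 0 to 1). Few profiles have their maximum in the first hours, most fall between 9 h and the end, and late profiles show a faint second signal at 4-5 h.

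Promoters were then classed by the study's definitions, which use TSCs of at least 10 RPM. All 23 libraries were used here, 7-8 h included, where 2 reads pass 10 RPM. Of 946 far TSCs at that level, 786 (83.1%) were developmentally regulated, with at least 60% of their summed RPM inside 8 consecutive time points. The regulated share was 74.8% of 1252 near and 41.9% of 9144 gene-assigned TSCs. Housekeeping promoters, with less than 5-fold between the highest and the lowest time point, numbered 8 among far TSCs (0.846%) and 20 among near TSCs (1.60%). They made up 5.98% of gene-assigned TSCs. The sets differ in level, and low counts in small libraries affect both classes. The part of level in these shares was not tested, and the settings that follow were computed for far TSCs only. Without 7-8 h the regulated share of far TSCs was 86.5% of 924, without scaffold 1390 it was 83.6% of 925, and with libraries thinned to the smallest outside 7-8 h it was 86.2% of 970.

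Among the 786 regulated far TSCs, 21 (2.67%) were early, with their highest hour before 3 h, 424 (53.9%) intermediate and 341 (43.4%) late, from 16 h on. These limits on the highest hour were set here, whereas the study drew its phases from expression clusters grouped by their core promoter motifs. The early share was 8.65% for near and 22.3% for gene-assigned TSCs, whose late shares were 41.7% and 33.3%. The balance of intermediate and late far TSCs depended on the scaling. With TMM factors, 272 (34.0%) were intermediate and 509 (63.5%) late, while the early share was 2.50%. Without 7-8 h there were 22 early, 431 intermediate and 346 late far TSCs, and with libraries thinned to the smallest outside 7-8 h 26, 453 and 357. Few far promoters were thus early under either scaling.

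Late far TSCs carried a second, earlier signal, as did late TSCs of the other sets. The 606 far TSCs of any level whose highest hour was 16-17 h or later held 0.0824% of reads at 3-4 h. Their share was 0.301% and 0.240% in the following libraries, and 0.106% at 6-7 h. For 467 of them (77.1%) the RPM at 4-5 h exceeded that in the 3-4 h library and that in the 6-7 h library. The same held for 72.1% of 798 late near TSCs and for 77.1% of 1906 late gene-assigned TSCs. Without 4-5 h and 5-6 h, 1309 far TSCs were called as changing and 839 of 940 were regulated, so neither count rested on those libraries.

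The strongest far TSC was RAMPAGEpeak_013660, a cluster of 32 bp on the minus strand of scaffold 4690 (852314 to 852345), 27577 bp from the nearest gene-assigned TSC. Its RPM was lowest at 21-22 h (14941), had a median of 33901 outside 7-8 h, and was highest at 6-7 h (57188, interval 56789.7 to 57589). The range was 3.83-fold, within the limit for housekeeping promoters, and the level was high at every time point. It was called as changing by limma (adjusted p = 0.000572, fitted span of 1.36 on the log2 scale) but not by edgeR with TMM factors (adjusted p = 0.30). Its profile was most like those of gene-assigned TSCs on scaffold 4644 (2473837 to 2473953, plus strand, Pearson r = 0.91), scaffold 4820 (7413408 to 7413484, minus strand, r = 0.91) and scaffold 4784 (18644484 to 18644789, minus strand, r = 0.91), out of 10372 compared over 22 time points, which share their libraries.

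Steady promoters were few among far TSCs, as they were among near TSCs. Of the 8 housekeeping far TSCs, RAMPAGEpeak_013660 included, 5 lay more than 50 kb from a gene-assigned TSC and 3 at 20 to 50 kb, with none closer. RAMPAGEpeak_006329, on the minus strand of scaffold 4929 (22768993 to 22769271), lay 112841 bp away and ran from 830 RPM at 20-21 h over a median of 1358 RPM to 2508 RPM at 11-12 h, a 3.02-fold range. RAMPAGEpeak_007848, on the plus strand of scaffold 4784 (24215777 to 24215924), lay 274787 bp away and ran from 44.6 RPM at 5-6 h to 167 RPM at 13-14 h, a 3.75-fold range. The other 5 had highest values of 40.3 to 513 RPM. RAMPAGEpeak_009010 (scaffold 4784, 3913253 to 3913365, plus strand) also ran within 3.23-fold outside 7-8 h, from 8.54 RPM at 4-5 h to 27.6 RPM at 9-10 h, but it had no read in the small 7-8 h library and so counted as neither class.

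The 3 strongest promoters with a highest hour before 3 h all lay on the plus strand of scaffold 4784. RAMPAGEpeak_008050 (5597201 to 5597298) had 2141 RPM at 0-1 h and its highest value of 2671 RPM (interval 2619.9 to 2722) at 2-3 h. Its RPM was 539 at 4-5 h, 1562 at 8-9 h and, as its lowest, 254 at 22-23 h. It changed over time by limma (adjusted p = 6.75e-07), a test that gives no direction. RAMPAGEpeak_009236 (23189886 to 23190573), 688 bp wide, went from 1345 RPM at 2-3 h to 179 RPM at 22-23 h. It changed over time by limma (adjusted p = 1.22e-06) and did not pass the test of edgeR (adjusted p = 0.073). RAMPAGEpeak_007573 (23724206 to 23724406) had 1926 RPM at 2-3 h, 387 by 3-4 h, a lowest value of 124 RPM at 5-6 h and 1454 by 11-12 h, so that its level dipped and came back. None of the 3 was limited to the first hours, since each held at least 179 RPM at the end.

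Several strong promoters of mid and late embryogenesis had few or no reads at 0-1 h. RAMPAGEpeak_010681, on the minus strand of scaffold 4784 (7024430 to 7024638) and 5791 bp from a gene-assigned TSC, had 3 reads (0.216 RPM) at 0-1 h. It had 22.9 RPM at 1-2 h, 2.80 at 2-3 h and 1.18 at 4-5 h. Its level was 51.4 RPM by 10-11 h, 1702 by 14-15 h and 2849 (interval 2796 to 2904) by 15-16 h, then 544 at 17-18 h and finally 21.5 RPM. It changed over time by both tools (limma adjusted p = 5.09e-07, edgeR adjusted p = 3.04e-07). The gene-assigned TSCs with the most similar profiles, on scaffold 4845 (21587576 to 21587820, minus strand), scaffold 4770 (2303851 to 2304163, plus strand) and scaffold 4690 (3024356 to 3024378, minus strand), had a Pearson r of 0.98, 0.98 and 0.97 over the same 22 time points and were highest at 14-15 h or 15-16 h. None of them lay on the same scaffold.

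RAMPAGEpeak_003013, on the minus strand of scaffold 4770 (10787052 to 10787214), had no read among the 13882184 at 0-1 h, which allows up to 0.216 RPM, and reached 2195 RPM (interval 2112 to 2282) at 14-15 h, at least 10158-fold higher. It was not absent from all early libraries, with 22.7 RPM at 1-2 h, 1.53 at 2-3 h and 20.7 at 3-4 h. It was back at 5.96 RPM at 19-20 h. RAMPAGEpeak_004543, on the plus strand of scaffold 4929 (17731807 to 17731879), had 0.432 RPM at 0-1 h, 19.6 at 1-2 h and 2.04 at 2-3 h. Its highest value was 809 at 16-17 h, and it had 4.45 in the last library. Both waves were over before the end of the series, and both TSCs changed by limma (adjusted p = 1.04e-07 and 6.48e-09). By contrast, RAMPAGEpeak_008820 (scaffold 4784, 3502957 to 3503123, plus strand) rose from 22.2 RPM at 0-1 h to 505 by 5-6 h and 1175 by 11-12 h, reached 2028 RPM at 17-18 h and was still at 1733 in the last library (limma adjusted p = 2.47e-10). RAMPAGEpeak_004952 (scaffold 4929, 18962281 to 18962447, plus strand) had 3.31 RPM at 0-1 h, 44.8 at 4-5 h and 24.7 at 8-9 h. Its lowest value, 0.771 RPM at 6-7 h, was 1 read. It had its highest value of 712 at 16-17 h and 211 in the last library.

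**Figure D4:**
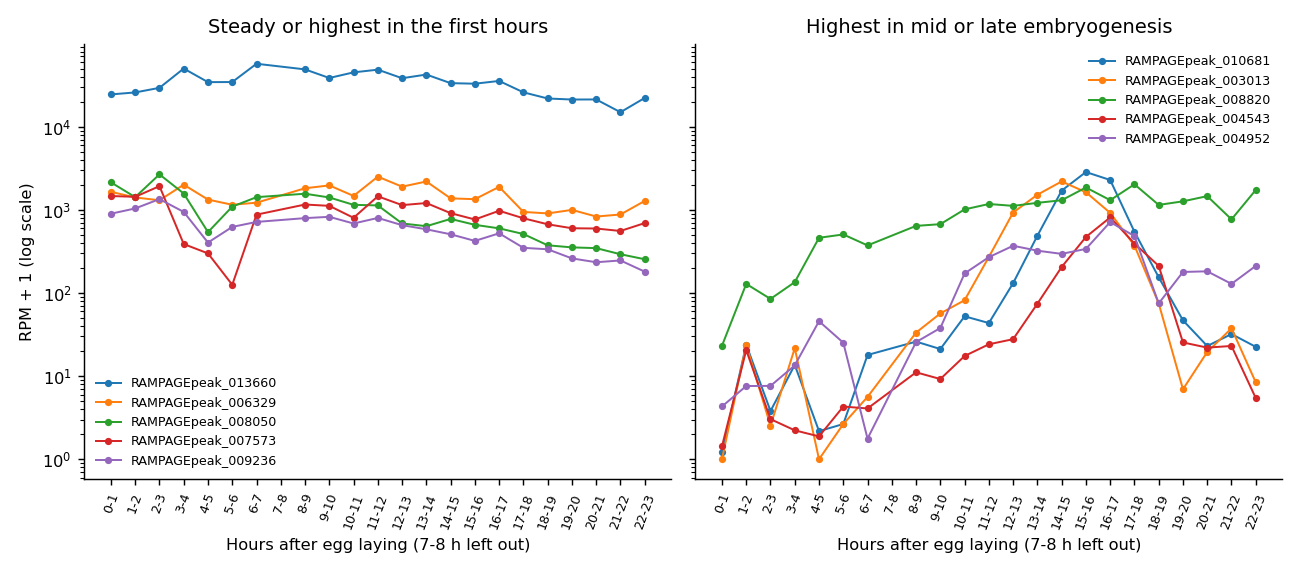
RPM + 1 (log axis) of 10 strong far TSCs against hours after egg laying, without 7-8 h; lines join single libraries and carry no error bars. On the left RAMPAGEpeak_013660 stays between 14941 and 57188 RPM, while RAMPAGEpeak_007573 dips to 124 RPM at 5-6 h and comes back, and on the right RAMPAGEpeak_010681 goes from 0.216 to 2849 RPM and back to 21.5 RPM.

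The profiles most confined in time, among far TSCs with at least 500 reads, belonged to 3 further promoters. RAMPAGEpeak_007655 (scaffold 4784, 13820407 to 13820506, plus strand) had an entropy of 0.862 bits, with 476 of its 637 reads at 2-3 h, where it stood at 121 RPM (interval 111 to 133). It had 1.66 RPM at 0-1 h and 14.4 at 3-4 h, with no read in the next library. Its RNA was thus seen as a single short pulse. The fly embryo's own genome is known to become widely active at about that stage.

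RAMPAGEpeak_000672 (scaffold 4770, 9037654 to 9037747, plus strand), 117013 bp from a gene-assigned TSC, was highest at 3-4 h with 53.9 RPM, and had 27.7 in the next library and 1.54 by 6-7 h (entropy 2.18 bits). RAMPAGEpeak_012352 (scaffold 4690, 257858 to 257899, plus strand) had no read at any time point up to 12-13 h, at most 0.859 RPM from 13-14 h to 17-18 h, and then 338, 226, 670, 569 and 314 RPM in the last 5 libraries (entropy 2.22 bits). The onset of the last thus fell between neighbouring libraries, and unlike most late far TSCs it had no read at 4-5 h.

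Distance to the nearest gene-assigned TSC went with modest differences among far TSCs. From 5 to 10 kb up to more than 50 kb, the regulated share was 85.6%, 83.4%, 82.8% and 79.5%, the median entropy 3.47, 3.53, 3.59 and 3.71 bits, and the share at 5 RPM or above in all 22 libraries 3.43%, 3.65%, 6.16% and 6.86%. Median reads also went up, from 260 to 449 per TSC, and the part of depth in these steps was not tested. The share of tested far TSCs called higher at the end was 70.5%, 73.9%, 71.6% and 61.1%. The 40 far TSCs on small scaffolds other than 1390 without a gene-assigned TSC differed more: 34 of the 37 tested were called, and 7 of them (18.9% of those tested) were higher at the end.

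The profiles of far TSCs had low correlations with that of the nearest gene-assigned TSC of at least 5 RPM. The median Pearson r of log2(RPM + 1) over 22 time points was 0.12 for 383 far TSCs at 5 to 10 kb, 0.14 for 338 at 10 to 20 kb, 0.03 for 269 at 20 to 50 kb and 0.13 for 138 beyond 50 kb. For near TSCs it was 0.21 for 956 at 1 to 5 kb and 0.50 for 851 within 1 kb. These values are descriptions, since all points share libraries and counting error in weak TSCs can lower r. The r exceeded 0.7 for 12.3% of far TSCs at 5 to 10 kb and was below 0 for 41.0%. With TSCs of at least 500 reads only, the medians were 0.07, 0.17, 0.06 and 0.20 in the 4 ranges of far TSCs. For near TSCs of that depth they were 0.12 for 278 at 1 to 5 kb and 0.53 for 282 within 1 kb. Low correlations were thus not particular to far TSCs, since the median at 1 to 5 kb lay among theirs.

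Correlations between far TSCs within 5000 bp of each other were higher, but these spacings are shorter than any distance to a gene-assigned TSC. Far TSCs lying farther apart were not compared, so the part of spacing was not tested. At a spacing of up to 5000 bp, 508 far TSCs fell into 212 groups and 950 stood alone. Without scaffold 1390 there were 211 groups with 484 members, none larger than 5. Pairs on the same strand within 500 bp (52 pairs without scaffold 1390) had a median r of 0.76, divergent pairs (24) 0.56 and convergent pairs (6) 0.48. At 500 to 5000 bp the medians were 0.69 for 165 same-strand, 0.58 for 69 divergent and 0.43 for 19 convergent pairs. Pairs can share a TSC and are not independent.

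The largest groups apart from scaffold 1390 showed both patterns. On scaffold 4770 (11990321 to 11993663), 5 far TSCs, 4 of them on the minus strand, had a median r of 0.83 (0.75 to 0.91) and were highest at 13-14 h or 14-15 h. The strongest, RAMPAGEpeak_001762, had 0.216 RPM at 0-1 h, 27.0 by 10-11 h, a highest value of 172 at 13-14 h and 2.97 in the last library, and the weakest, RAMPAGEpeak_000143, reached 6.87 RPM at 14-15 h. On scaffold 4845 (1794641 to 1805014), 5 far TSCs had a median r of 0.12 (-0.36 to 0.93) and 5 different highest hours. In that group RAMPAGEpeak_020671 and RAMPAGEpeak_021845, both on the minus strand, had 306 and 183 RPM at 0-1 h and 45.2 and 37.8 RPM at 22-23 h, while RAMPAGEpeak_020380 on the plus strand started with 192 RPM, had 30.5 at 3-4 h and reached 262 at 8-9 h. Spacing of a few kb thus went with alike profiles in one group and unlike profiles in the other.

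The closest opposite-strand pairs overlapped in position. RAMPAGEpeak_006048 (minus) and RAMPAGEpeak_004889 (plus) on scaffold 4929 (8546475 to 8546653 and 8546573 to 8546845) peaked next to each other, at 13.5 RPM at 8-9 h and 49.5 RPM at 9-10 h (r = 0.71). RAMPAGEpeak_006875 (minus, 26170905 to 26171017) and RAMPAGEpeak_004896 (plus, 26170998 to 26171062) on the same scaffold were very unequal, with 451 RPM at 0-1 h against at most 6.71 RPM, which rested on 7 reads (r = 0.54). On scaffold 4784, RAMPAGEpeak_008170 (plus, 10848727 to 10848911) was highest at 3-4 h with 7.72 RPM and its convergent partner RAMPAGEpeak_010330 (minus, 10848806 to 10848992) at 17-18 h with 10.1 RPM (r = -0.25). Overlapping start sites thus occurred with shared as well as with opposed timing.

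Scaffold 1390 carried 29 TSCs, none assigned to a gene, of which 24 met the definition, 11 on the plus and 13 on the minus strand between 628 and 15334. Their widths ranged from 7 to 899 bp with a median of 165 bp, well above the 35 bp of far TSCs as a whole, and together they covered 5731 bp. The sources used here do not give what this scaffold is. The strongest were RAMPAGEpeak_018406 (minus, 13952 to 14415) with 34.1 RPM at 22-23 h and 8632 RPM at 13-14 h, RAMPAGEpeak_018394 (plus, 1495 to 2393) with 232 RPM at 20-21 h and 6079 RPM at 13-14 h, and RAMPAGEpeak_018401 (plus, 628 to 1103) with 227 RPM at 13-14 h and 5961 RPM at 3-4 h.

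These TSCs went up and down together, but not smoothly in time. Their median RPM was 4.47 at 0-1 h, 89.4 by 3-4 h, 5.60 an hour later, 81.0 by 6-7 h, 141 in the small 7-8 h library and 5.31 by 8-9 h. It stood at 109 by 10-11 h and 150.1 by 13-14 h, and was down to 4.86 by 15-16 h, with 31.3 by 17-18 h and 3.71 in the last library. Neighbouring libraries thus differed by an order of magnitude at several points of the series. Pairs of the 24 had a median r of 0.81, with a lowest of 0.24 over 22 time points. An exception was RAMPAGEpeak_018401, which had 227 RPM at 13-14 h, between 2902 in the library before and 3929 in the one after, where 12 of the 24 were at their highest outside 7-8 h. By limma 17 of the 24 were called as changing (adjusted p from 0.000681 to 0.42), against 87.4 percent of all TSCs tested. By edgeR 6 of the 24 were called, against 78.7 percent of all TSCs tested. Both shares were thus below those over all TSCs.

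**Figure D5:**
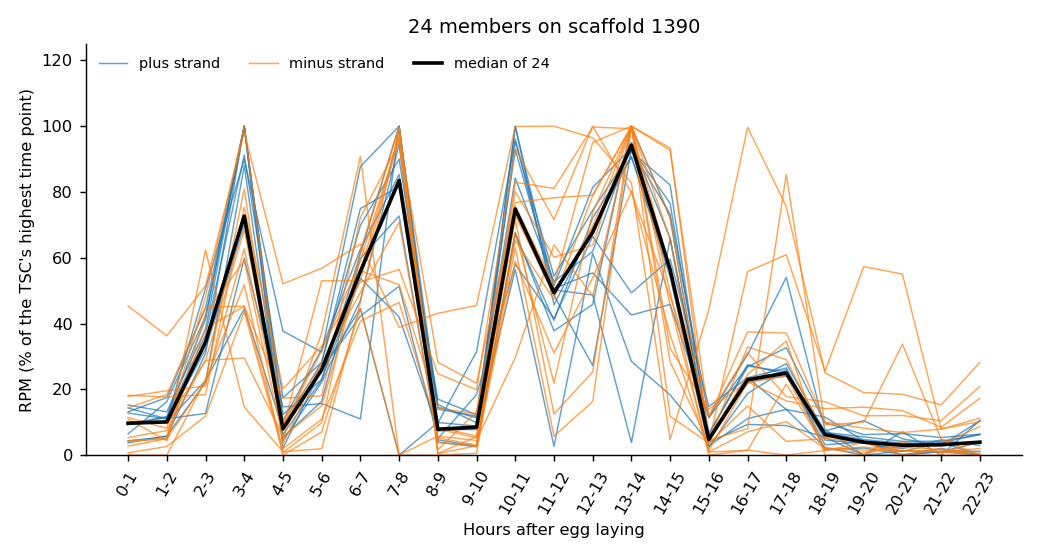
RPM of the 24 far TSCs on scaffold 1390 against hours after egg laying, each as a percentage of its highest time point (thin lines, coloured by strand), with their median (black). Both strands rise and fall together between neighbouring libraries, with a median of 72.7% of the maximum at 3-4 h, 7.98% an hour later and 94.2% by 13-14 h.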

How the data were processed

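RAMPAGE was carried out on 23 samples of whole embryos, barcoded during reverse transcription and processed as 1 library. The authors mapped reads with STAR (version not given in the sources used here) to FlyBase release 1.3, called TSCs on the pooled series, removed those on rDNA and deposited RPM per TSC and time point. The deposited position list holds start and end, plus a score whose meaning is not given and which was not used. The deposited gene tables, with RPM and a smoothed score, were not used here. Stage marker genes, annotation, repeats and sequences around the TSCs were not analysed here, as no genome of that release was used. Groups are the labelled time points, and no sample column was left unused (0).

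Every one of the 379172 RPM values above 0 (100%) was a whole number of reads within 0.01 read, so reads were recovered. Positions are 1-based, and distances run between TSC edges. Gene-assigned TSCs include 169 listings that repeat a position. Change over time was tested with limma 3.58.1 (trend) on log2(RPM + 1), which understates changes of low TSCs, with a natural spline of 4 df, after filterByExpr with a minimum count of 10. edgeR 4.0.16 on recovered reads and DESeq2 1.42.0 were alternatives, in R 4.3.3. The script was tested on simulated data. Other values were computed in Python 3.11.15 (numpy 2.4.6, pandas 2.3.3). Correlations are Pearson r of log2(RPM + 1) over the time points outside 7-8 h. Upper limits for a count of 0 use 3 reads. How far duplicate reads were removed was not examined here, so reads need not count independent molecules. Named TSCs were the 10 highest, the 3 highest before 3 h, from 3 to 16 h and from 16 h, the 3 steadiest and 3 lowest in entropy with at least 500 reads, those next to the limits, the farthest, the housekeeping ones, and the largest groups and closest opposite-strand pairs. The members and lists were chosen with earlier results of these data known.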

Additional observations from a re-analysis of the deposited data

How the results depend on the processing

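No paired analysis was possible because each time point had 1 sample and no replicate numbers. The number of far TSCs was 2463 at a minimum of 2 RPM and 924 at 10 RPM, and 2166 at a distance of 2000 bp, 991 at 10000 bp and 2024 with the same strand only. Their median share of the library, 7.48% as reported, was 3.44% without RAMPAGEpeak_013660, 1.94% without the 10 with most reads, 6.96% without 7-8 h and 5.80% without scaffold 1390. A running mean over 3 time points gave 31 housekeeping far TSCs in place of 8. With a minimum of 5 RPM outside 7-8 h, 1292 were regulated, 41 early, 675 intermediate and 576 late, since more TSCs entered. TMM factors left 272 intermediate in place of 424. Median entropy was 3.55 bits without 7-8 h and without scaffold 1390, and 3.44 bits with thinned libraries. At 100 reads per TSC, not scaled to RPM, it was 3.24 bits. The number of changing far TSCs ranged from 1304 to 1348 when each time point was left out in turn, and was 1328 with the likelihood ratio test of DESeq2. The other counts recomputed stayed within 1.5 times those reported. The scaffold 1390, read-minimum, library-total and library-thinning settings were chosen after seeing the data. Alternatives for annotation, repeat content and motifs were not run. Depth limits the weakest far TSCs, as the highest value rested on fewer than 10 reads for 160 far TSCs.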
